A study of Mus musculus with 2 samples.

Results

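Ion channel genes were followed in primary mouse osteoblast cultures at day 12 and day 5 of differentiation. They were taken as all probe sets whose single gene symbol begins with Kcn, Cacn, Clcn, Piezo or P2rx, with Scn, Ano or Hcn and a digit, or with Trp, a letter a, c, m or v, and a digit. This gave 341 probe sets of 164 genes, out of 45101 probe sets and 18193 named genes on the array. The rule works by symbol, so it also took auxiliary subunits, 3 noncoding transcripts (Kcnq1ot1, Kcnmb4os1 and Kcnmb4os2) and Trpc4ap, an adaptor protein that is not a channel.

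The cells were isolated from the skull roof bones (calvariae) of newborn mice, depleted of cells carrying the myeloid surface protein CD11b, and grown with ascorbic acid and β-glycerophosphate, which support collagen deposition and mineral formation. Total RNA was taken once after 12 days and once after 5 days, with no other treatment, and each sample was hybridised to 1 Affymetrix array. The labels give no strain, sex or number of animals. With 1 array per day there is no replicate error and no test, so each difference compares these 2 arrays only, and whether it is larger than the spread between cultures cannot be told.

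Ion channels let potassium, calcium, sodium or chloride cross membranes down their gradients. Potassium channels set the resting voltage of a cell, voltage-gated and stretch-gated cation channels admit calcium, and chloride channels and exchangers set cell volume and the acidity of endosomes and lysosomes. In osteoblasts, channels are studied mainly for the sensing of mechanical load, for calcium signalling and for the transport of mineral ions and acid.

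Signal is the authors' deposited intensity, in arbitrary units with each array scaled to the same mean, and signals of different probe sets cannot be set against each other as amounts of RNA. A gene was represented by its brightest probe set. Background was drawn at each array's 60th percentile (the floor), which came to 44.8 at day 12 and 46.6 at day 5, and a gene is called measured where at least 1 array reached it. As a second view of background, none of 80 probe sets for olfactory and vomeronasal receptors reached the floor. Their highest signals were 30.3 at day 12 and 21.5 at day 5.

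Most ion channel genes lay below the floor. Of the 164 genes, 32 were above it on both arrays, 12 on 1 array and 120 on neither, so 26.8% were measured. Of all named genes, 57.6% were measured and 53.9% were above the floor on both arrays. Families differed in this share. It was 5 of 7 for the Clcn chloride channels and exchangers, 3 of 7 for anoctamins, 3 of 7 for the ATP-gated P2X receptors, 6 of 19 for TRP channels and 18 of 81 for potassium channels and their subunits. Of 24 Cacn genes 4 were measured, 3 of 9 calcium channel pore genes and 1 of 15 auxiliary genes. Of 11 sodium channel genes 2 were measured, both among the 8 pore genes, and none of 2 Hcn pacemaker channel genes was. The 120 genes below the floor had signals of 0.144 to 43.8, with Kcnn1 and Kcnab2 next to it at 43.8 and 41.7 at day 12. Among them were Piezo2 (13.0 at day 12 and 11.7 at day 5), the epithelial calcium channel gene Trpv6 (8.03 and 3.97) and the L-type calcium channel gene Cacna1d (35.4 and 18.5). No ratio is given for such genes. Trpv5 and Ano5 were not analysed here.

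**Figure D1:**
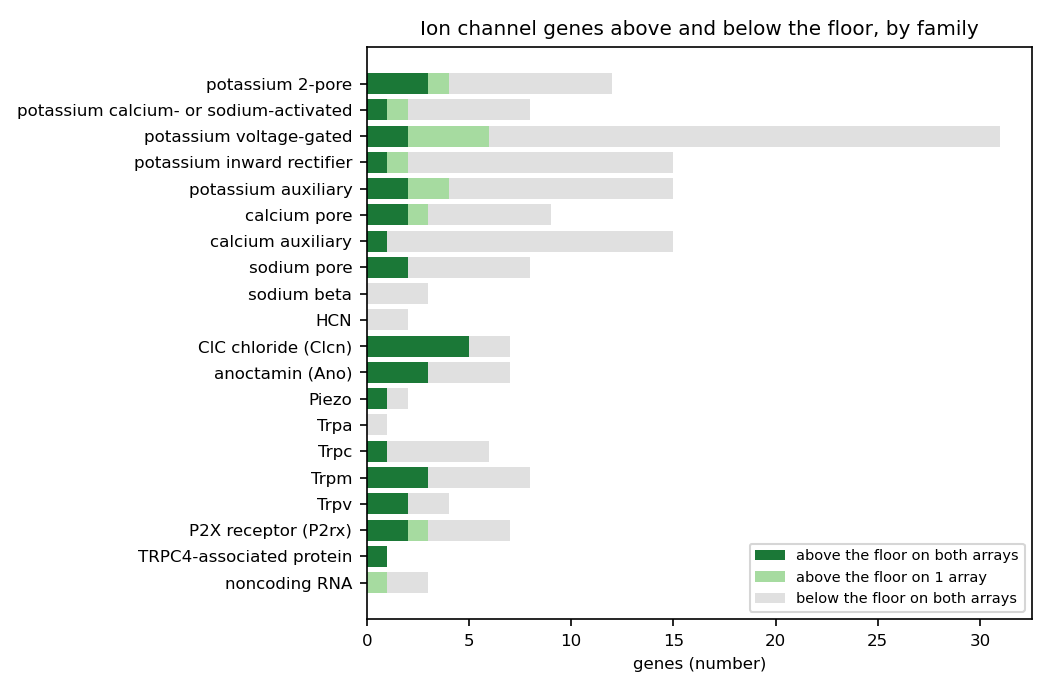
Number of ion channel genes (x axis) in each family (y axis) whose brightest probe set was above the floor on both arrays (dark green), on 1 array (light green) or on neither (grey). Most families are largely grey, and 5 of the 7 Clcn genes are dark green.

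Among the 44 measured genes, 7 had a signal at least 2-fold higher at day 12 and 2 at least 2-fold lower, and 35 lay between. The higher share was 15.9% of the measured ion channel genes, against 3.56% of 10479 measured genes of all kinds, and the lower share 4.55%, against 1.73% (5.29% of all measured genes were past 2-fold either way). A gene measured through 1 array alone could only count on that array's side, so the same was counted over the 32 genes above the floor on both arrays. There 6 were higher and 2 lower, against 3.1% and 1.52% of 9810 genes of all kinds. The median log2 ratio of day 12 over day 5 was -0.05 for the measured ion channel genes and -0.05 for all measured genes, and 21 ion channel genes were above 0 and 23 below. In RNA of a whole culture, fewer cells of a type and less RNA per cell cannot be told apart.

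**Figure D2:**
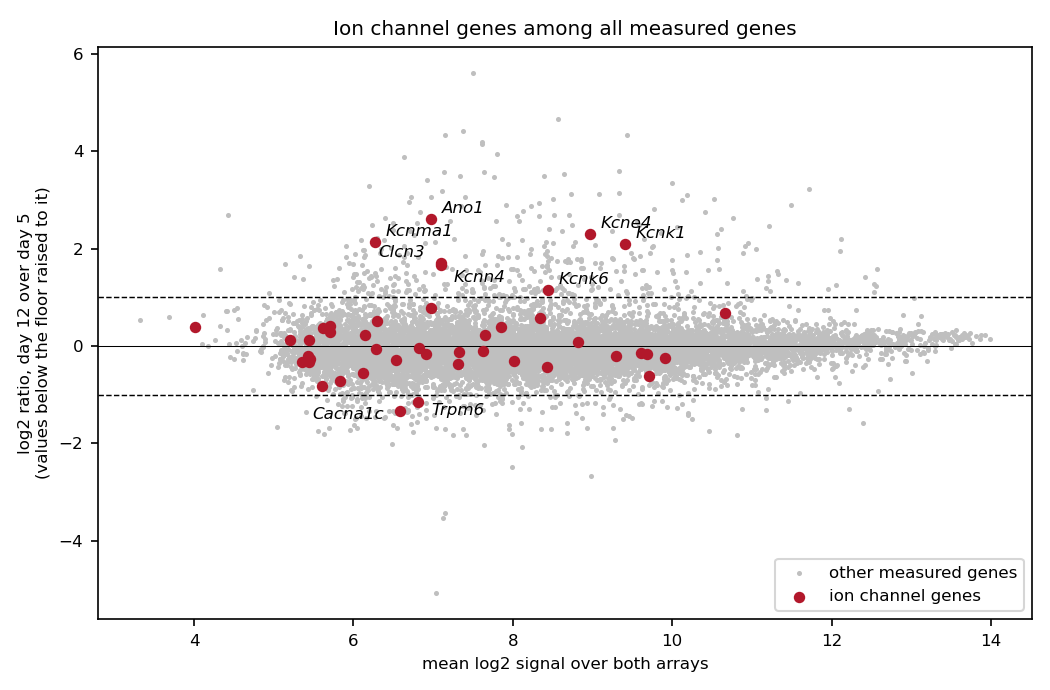
Log2 ratio of day 12 over day 5 (y axis) against the mean log2 signal of both arrays (x axis) for all measured genes (grey) and the 44 measured ion channel genes (red), each at its brightest probe set, with dashed lines at 2-fold. The 7 ion channel genes above the upper line and the 2 below the lower line are named, and the other 35 lie between the lines.

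Potassium channel genes made up 5 of the 7 higher genes. Of 18 measured potassium channel and subunit genes, 5 were at least 2-fold higher, none was 2-fold lower and 13 lay between. Of the 26 other measured genes, 2 were higher and 2 lower. Of the 18 potassium genes, 9 reached the floor on 1 array only, Kcnma1 among them, and could count on that array's side alone. Of the 26 others, 3 reached it on 1 array only, so the 2 groups are not alike in this. The difference between these counts was not tested.

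In the 2-pore family, whose members carry leak currents, Kcnk1 (TWIK-1) read 1404 at day 12 and 329.7 at day 5 (4.26-fold higher). Its second measured probe set gave 480.3 and 77.1, 6.23-fold higher, so both repeats put day 12 well above day 5. Kcnk6, a relative of Kcnk1, had 518 at day 12 and 235 at day 5 (2.21-fold higher) in its only probe set. Kcnk2 (TREK-1), which opens on membrane stretch, went the other way with 674 at day 12 and 1034 at day 5, a log2 ratio of -0.62. Kcnk5, opened by alkaline pH, was close to the floor with 36.1 at day 12 and 51.8 at day 5. The other 8 genes of the family were below the floor.

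Both measured genes of calcium-activated potassium channels were higher at day 12. Kcnma1, the pore of the large-conductance BK channel, had 204 at day 12 and 29.1 at day 5, below the floor, which makes it at least 4.38-fold higher. Its 4 other probe sets were below the floor on both days and give no ratio. Kcnn4, the intermediate-conductance channel, had 244 at day 12 and 77.0 at day 5 (3.17-fold higher), and 114 and 33.4 in its second probe set (at least 2.44-fold higher). Both measured probe sets of Kcnn4 had the higher signal at day 12, and Kcnma1 rests on 1 probe set that was measured at day 12 only.

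Kcne4, a membrane-spanning subunit that inhibits several voltage-gated potassium channels, read 1108 at day 12 and 225 at day 5 (4.92-fold higher), from its only probe set. Kcnab1, a cytoplasmic β subunit, had 263 at day 12 and 202 at day 5, a log2 ratio of 0.38. Its second measured probe set was below the floor at day 12 and gave a bound of -0.25. Kcnip3, a calcium-binding partner of Kv channels, and Kcnmb4, a BK channel subunit, were above the floor at day 12 only, at 51.1 and 50.6.

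Of 31 voltage-gated potassium channel genes, 6 were measured, all with signals under 2 times the floor. Kcnq5, an M-type channel, had 76.3 at day 12 and 79.4 at day 5, and Kcnd1, an A-type channel, 57.5 and 83.8. Kcnf1, an electrically silent subunit, had 60.9 at day 12 and 4.26 at day 5. Its ratio is printed as at least 1.31-fold because the day 5 value is below the floor, and the gap between the signals is wider than that bound. Kcng2, also a silent subunit, and Kcnh2 (the ERG channel) reached the floor at day 12 only, and Kcns1 at day 5 only, with log2 bounds of 0.37, 0.41 and -0.71. In the inward rectifiers, Kcnj11, the pore of ATP-sensitive potassium channels, had 218 at day 12 and 186 at day 5 (a log2 ratio of 0.23). Kcnj15 was above the floor at day 5 only, and the other 13 were below it.

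**Figure D3:**
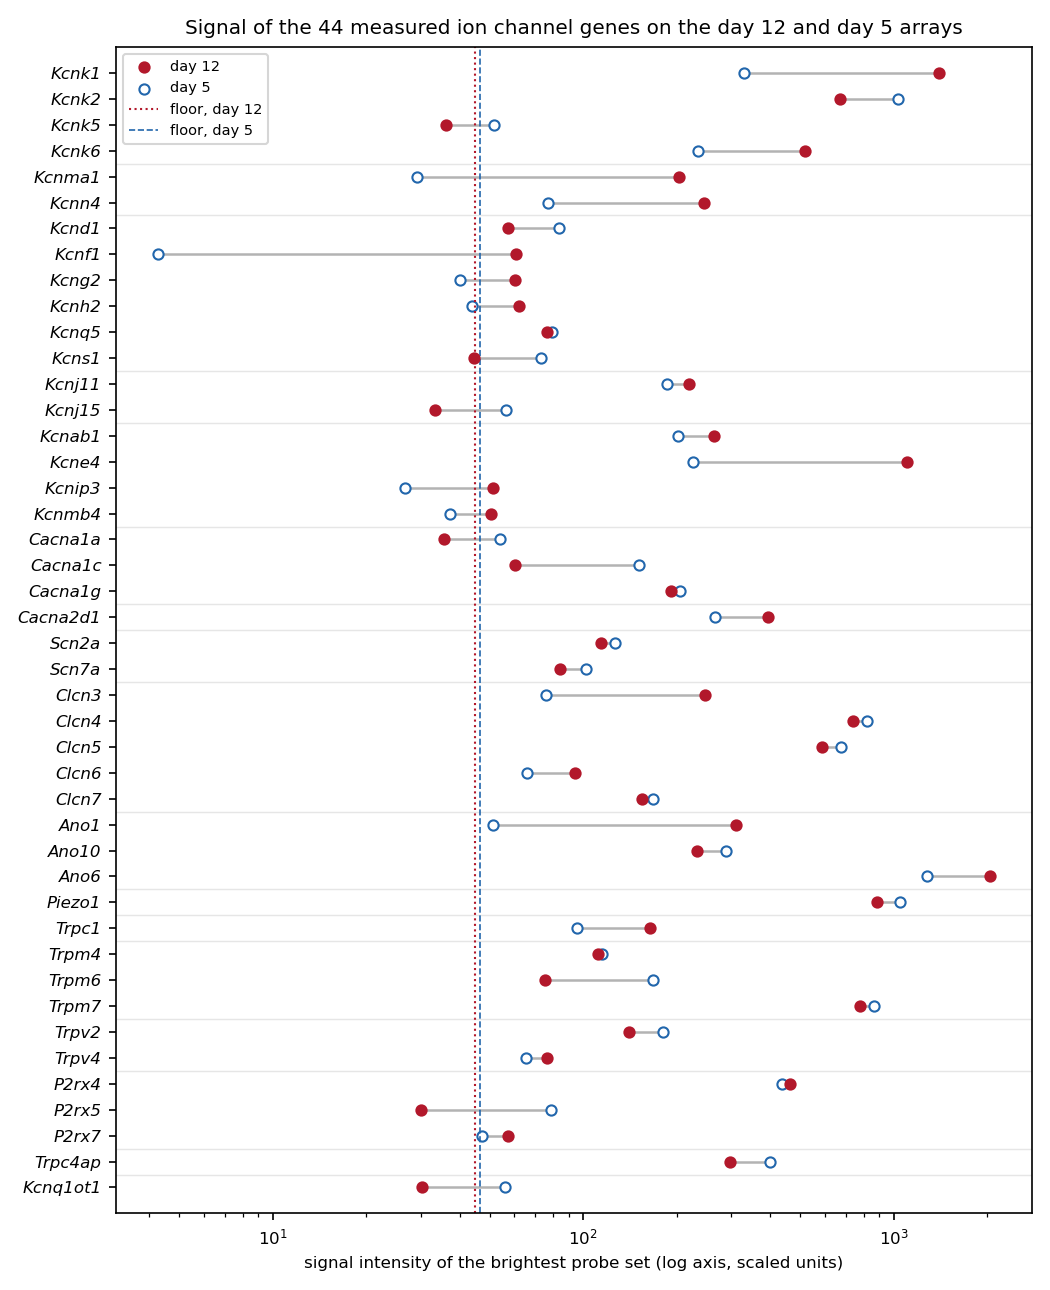
Signal of the brightest probe set (x axis, log scale) of each of the 44 measured ion channel genes (y axis, grouped by family) on the day 12 array (filled red) and the day 5 array (open blue), with each array's floor as a vertical line. Ano1, Kcnma1, Kcne4 and Kcnk1 show wide gaps with day 12 the higher, while Clcn4, Clcn7, Trpm7 and P2rx4 nearly coincide.

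Of the voltage-gated calcium channels, Cacna1c, the pore of the L-type channel of bone and heart, had 60.4 at day 12 and 152 at day 5 (2.51-fold lower). This rests on 1 probe set, since the other was below the floor on both days, with 38.2 at day 12 and 31.3 at day 5. The T-type channel gene Cacna1g was nearly level, at 191 and 205. Cacna1a was above the floor at day 5 only. Cacna2d1, the α2δ subunit that carries calcium channels to the surface, had 394 at day 12 and 265 at day 5 in its brightest probe set. Its 2 other measured probe sets gave log2 ratios of -0.26 and -0.05, against 0.57, so no direction can be given for it. The other 14 auxiliary genes were below the floor.

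Both measured sodium channel genes were slightly lower at day 12 in all their measured probe sets. Scn2a had 114 at day 12 and 127 at day 5 (a log2 ratio of -0.15, and a bound of -0.22 in the second probe set, which was below the floor at day 12). Scn7a, a sodium sensor of the same family, had 84.0 and 102 (-0.28, and -0.48 in the second).

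Of the 5 measured Clcn genes, 1 was past 2-fold. This was Clcn3, a chloride-proton exchanger of endosomes, which had 248 at day 12 and 75.7 at day 5 (3.27-fold higher). Its other measured probe sets gave 147 and 61.5, 144 and 57.0, and 80.1 and 27.0 for day 12 and day 5, so all 4 measured probe sets had the higher signal at day 12, with log2 ratios of 0.78 (a bound) to 1.71. The brightest one is of a type whose probes can be shared between transcripts. Without probe sets of shared sequence, Clcn3 had a log2 ratio of 1.34. Its close relatives Clcn4 (741 and 819) and Clcn5 (588 and 676) had log2 ratios of -0.15 and -0.20. Clcn7, the lysosomal exchanger needed by osteoclasts to dissolve bone, had 154 at day 12 and 167 at day 5, and Ostm1, its partner subunit, had a log2 ratio of -0.25. Clcn6 was at 0.52.

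Among anoctamins, Ano1, a calcium-activated chloride channel, had 311 at day 12 and 51.2 at day 5 (6.08-fold higher). This was the largest ratio among ion channel genes above the floor on both arrays. It comes from a probe set of a type whose probes are shared between transcripts. The second probe set had 56.9 at day 12 and 28.1 at day 5, at least 1.22-fold higher. The direction is the same in both, and the second probe set had the smaller gap. Its deposited signals differed 2.02-fold, a size that is uncertain because the day 5 value is below the floor. Ano6, which moves phospholipids across the plasma membrane on calcium entry, had 2049 at day 12 and 1279 at day 5 (a log2 ratio of 0.68, and 0.42 in the second probe set). Ano10 had 233 and 288.

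**Figure D4:**
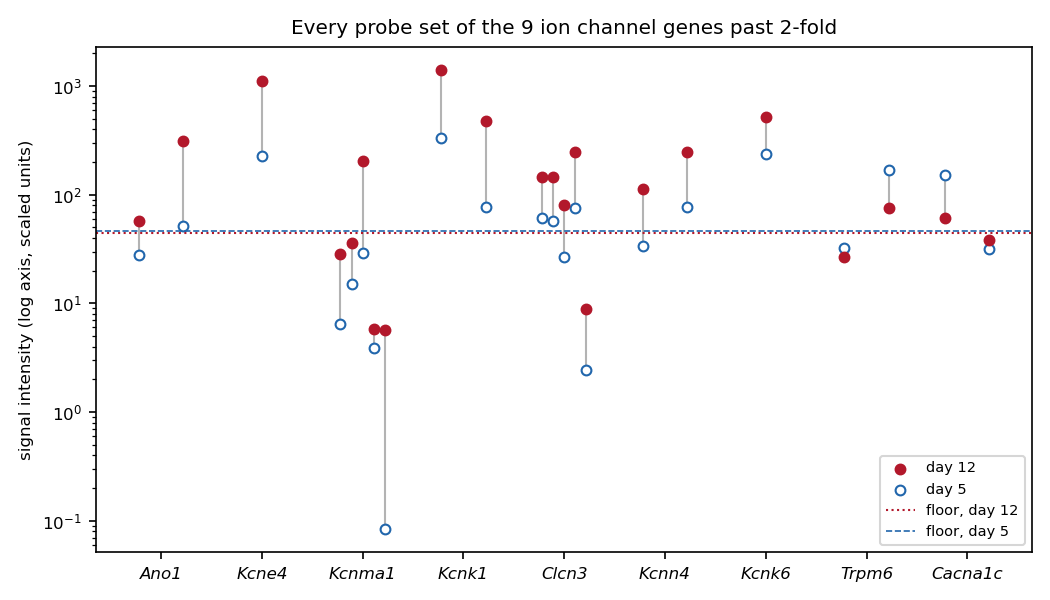
Signal (y axis, log scale) of every probe set of the 9 ion channel genes past 2-fold (x axis) at day 12 (filled red) and day 5 (open blue), joined per probe set, with each array's floor as a horizontal line. The measured probe sets of Kcnk1 (2), Kcnn4 (2), Clcn3 (4) and Ano1 (2) have the higher signal at day 12. Pairs of points that lie below both lines are below the floor on both arrays and are given no ratio.

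Piezo1, the main stretch-gated cation channel of osteoblasts, had 884 at day 12 and 1049 at day 5 (a log2 ratio of -0.25). Trpv4, an osmotic and mechanical sensor, had 76.2 and 65.5, and Trpv2 141 and 181. Outside these, Trpc1, a subunit of calcium-permeable channels, had 164 at day 12 and 95.7 at day 5 (0.77), with its other probe set below the floor.

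Trpm6 and Trpm7 are magnesium-permeable channels joined to a kinase. Trpm6 had 75.5 at day 12 and 168 at day 5 (2.23-fold lower), and its second probe set was below the floor at 26.6 and 32.1. Trpm7 had 777 at day 12 and 868 at day 5, and its 3 measured probe sets gave log2 ratios of -0.16 to -0.01. Trpm4, a calcium-activated sodium and potassium channel, was level at 111 and 115. Trpa1 and the other TRP genes were below the floor. Of the ATP-gated P2X receptors, P2rx4 had 464 at day 12 and 436 at day 5, P2rx7 was close to the floor at 57.4 and 47.2, and P2rx5 was below the floor at day 12, with 30.1 against 78.5 at day 5 (at least 1.75-fold lower). The adaptor gene Trpc4ap had a log2 ratio of -0.42. The noncoding transcript Kcnq1ot1, which lies antisense to Kcnq1, reached the floor at day 5 only, at 55.9.

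Promoter windows from RefSeq (assembly GRCm38.p6, 250 bases before to 50 after a start site) were found for 8 of the 9 genes past 2-fold, 11 windows in all. They are shown for the 3 genes that were at least 2-fold higher at day 12 in a second measured probe set too (Kcnn4, Kcnk1 and Clcn3), and for Kcne4, the accessory subunit with the largest ratio. The windows are chr7:24370013-24370312 on the plus strand for Kcnn4, chr1:78816661-78816960 on the plus strand for Kcne4, chr8:125994852-125995151 on the plus strand for Kcnk1 and chr8:60983262-60983561 on the minus strand for Clcn3, the more upstream of its 2 windows. Capitals mark the letters TGTGGT, the core bound by Runx factors, and ACGTG or GCGTG, the core of hypoxia response elements, on either strand.
Kcnn4: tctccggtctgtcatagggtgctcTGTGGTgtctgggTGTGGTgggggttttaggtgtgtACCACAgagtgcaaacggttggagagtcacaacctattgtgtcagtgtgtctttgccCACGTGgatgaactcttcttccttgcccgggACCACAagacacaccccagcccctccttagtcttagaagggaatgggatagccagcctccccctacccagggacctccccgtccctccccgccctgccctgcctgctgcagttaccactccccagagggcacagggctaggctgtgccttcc
Kcne4: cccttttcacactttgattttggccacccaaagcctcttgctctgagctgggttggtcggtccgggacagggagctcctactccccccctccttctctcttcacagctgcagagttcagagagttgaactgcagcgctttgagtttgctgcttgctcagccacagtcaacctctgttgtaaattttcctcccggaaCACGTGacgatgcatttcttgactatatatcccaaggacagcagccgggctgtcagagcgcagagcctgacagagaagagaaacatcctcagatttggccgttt
Kcnk1: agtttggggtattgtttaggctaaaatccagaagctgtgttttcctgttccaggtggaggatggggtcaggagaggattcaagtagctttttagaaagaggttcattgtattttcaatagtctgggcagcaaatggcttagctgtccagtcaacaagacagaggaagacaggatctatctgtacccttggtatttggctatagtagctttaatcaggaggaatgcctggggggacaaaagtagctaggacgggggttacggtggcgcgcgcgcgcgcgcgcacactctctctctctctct
Clcn3: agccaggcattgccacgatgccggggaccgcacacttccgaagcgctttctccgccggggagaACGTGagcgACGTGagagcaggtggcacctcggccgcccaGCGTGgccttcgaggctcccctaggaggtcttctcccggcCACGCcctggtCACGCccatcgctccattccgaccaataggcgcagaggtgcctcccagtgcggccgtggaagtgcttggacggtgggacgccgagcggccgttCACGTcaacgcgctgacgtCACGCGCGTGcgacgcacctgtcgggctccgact

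Kcnn4 held TGTGGT at 4 places, and at least 4 matches occurred in 0.0457% of 32851 promoter windows, while at least 1 occurred in 16.8%. Of the 11 windows, 1 of Cacna1c, a gene lower at day 12, also held it once. Clcn3 held ACGTG or GCGTG 8 times in a window of 68.7% G and C, and at least 8 matches occurred in 0.146% of windows, whose median G and C content was 52.7%. Kcne4 and Kcnn4 each held the palindrome CACGTG once, which counts on both strands, and 20.6% of windows had at least 2 matches. In 1 window each of Cacna1c and Trpm6, ACGTG or GCGTG occurred once, as at least 1 match did in 43.8% of windows. The windows of Kcnk1, Kcnma1 and Ano1 held none of these letters. Neither did the second window of Clcn3, with 41% G and C, nor 1 window of Cacna1c, with 81.3%. The counts of Kcnn4 and Clcn3 were the highest among the 11 windows for the 2 motifs. These matches describe the sequence and show no binding.

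Genes of other channels, pumps and exchangers outside the symbol rule, with some of their subunits and regulators, were counted the same way. Of 70 such genes with a probe set, 34 were measured, 1 was at least 2-fold higher at day 12, none was 2-fold lower and 33 lay between. The higher one was Slc8a3, a sodium-calcium exchanger that moves calcium out of cells, with 2333 at day 12 and 329.4 at day 5 (7.08-fold higher). Its second probe set was below the floor, at 34.1 and 14.1. The 15 measured genes of calcium entry and calcium stores, among them Orai1 (76.4 at day 12 and 129 at day 5, a log2 ratio of -0.76), Stim1 and Mcu, had a median log2 ratio of -0.01. The 9 measured anion and volume channel genes had a median of -0.09, with Vdac1 highest at 0.45, and the 9 pumps and exchangers had a median of 0.04. The 1 measured gene among other sodium and cation channels, Tmem175, was at -0.44.

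Markers of the cell types that such cultures could hold differed between the days as well. All 5 osteoblast markers with a probe set were above the floor on both arrays, and 3 of them (Ibsp, Alpl and Sp7) were at least 2-fold higher at day 12. All 6 measured myeloid markers were at least 2-fold higher, with log2 ratios of 1.13 to 2.13. The summed signal over 7 genes was 9731 at day 12 and 4064 at day 5, most of it from Lyz2 (5984 and 2649). Itgam, which encodes CD11b, was below the floor at 35.4 and 14.6. Myeloid cells also use Kcnn4, P2rx4 and P2rx7, of which P2rx4 and P2rx7 were not past 2-fold. The part of myeloid cells in the ratios of any of the 7 higher ion channel genes was not tested. All 5 chondrocyte markers were lower at day 12, 2 of them by at least 2-fold. The summed signal of these markers was 8736 at day 12 and 19329 at day 5, most of it from Col2a1 and Col9a1. The part of chondrocytes in the lower signals of Cacna1c and Trpm6 was not tested. Of 5 skeletal muscle markers, Acta1 was 3.23-fold lower and Ckm, Myog, Myh3 and Tnnt3 were below the floor. Of 4 smooth muscle markers, Cnn1 was 2.17-fold lower, Acta2 and Tagln had log2 ratios of 0.05 and -0.14, and Myh11 was below the floor. Of 7 neuron markers 5 were below the floor, Tubb3 was 2.38-fold higher and Map2 had a bound of -0.08. All endothelial markers and both glial markers with a probe set were below it, and the adipocyte markers Fabp4 and Adipoq had log2 ratios of -0.83 and -0.75 (a bound for Adipoq).

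Among the 9 genes past 2-fold, Kcne4 and Kcnk1 stayed past it in each alternative. With the floor at the 75th percentile, Ano1, Clcn3, Kcnma1 and Kcnn4 had log2 ratios of 0.78, 0.45, 0.17 and 0.43, all bounds. Cacna1c was at -0.87 and Trpm6 at -0.80 with a pseudocount of 50, and they were at -0.52 and -0.71 with the median over probe sets.

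**Figure D5:**
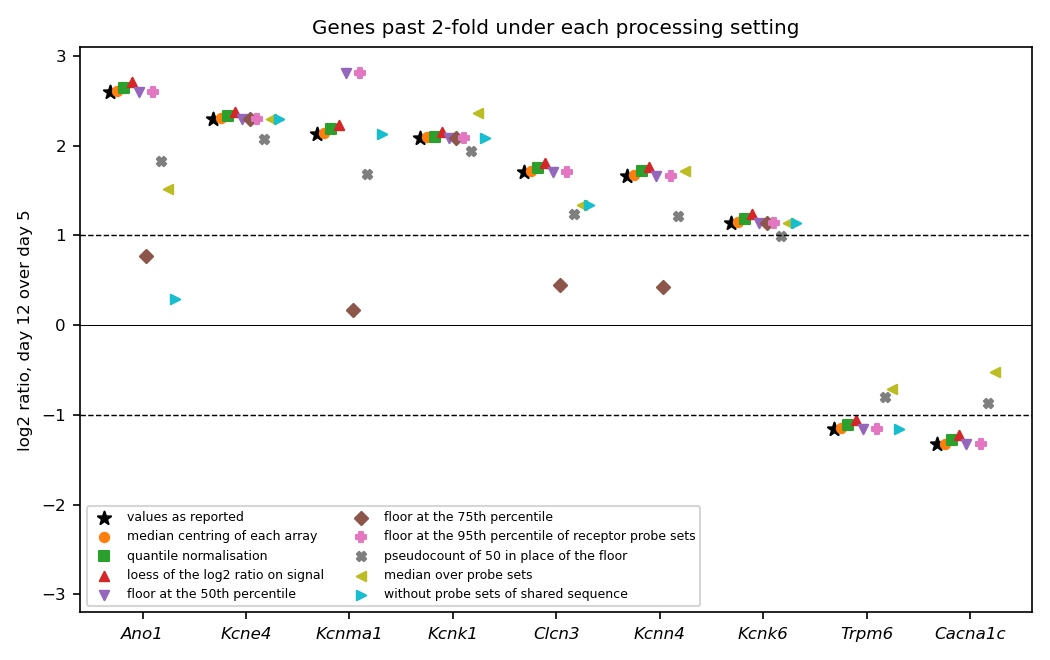
Log2 ratio of day 12 over day 5 (y axis) of the 9 ion channel genes past 2-fold (x axis) under the reported processing (black stars) and 9 alternatives (other symbols), with dashed lines at 2-fold. A missing symbol means that the gene was below the floor on both arrays in that setting. The exception is Kcnn4 without probe sets of shared sequence, where it had no probe set left. Kcne4 and Kcnk1 stay above the upper line in every setting shown, and Ano1 spans from 0.29 to 2.7.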

How the data were processed

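Per the labels' protocols, total RNA of 2 samples, 1 per day, was labelled with biotin and hybridised to 1 array each. GCOS 1.4 and MAS5 are the tools that the submitters' processing notes list, without settings. The authors deposited signal intensity on a linear scale. Its mean after trimming 2% at each end was 200.0 on both arrays, and the median signal was 19.6 at day 12 and 19.7 at day 5. No detection call was used. Genes were named from the platform annotation, with symbols updated by Entrez number through a table of GRCm38.p6: of 45037 probe sets other than 64 controls, 34945 had 1 symbol, 932 several and 9160 none, and 34741 symbols were matched.

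Values were used as deposited. A gene's brightest probe set by mean log2 signal stood for it, lower values were set to the floor ahead of the log2 ratio, and genes past 2-fold were counted. With 1 array per day no test was run, and the number of arrays limits the precision. The only repeats were probe sets of 1 gene. Over 4446 genes with at least 2 measured, the median gap between the log2 ratios of the 2 brightest was 0.17, and over the 15 such ion channel genes 0.26 (12 had the same sign). This covers probe error only. Genes were named in the text where past 2-fold, among the 2 brightest of a family or on a fixed list, along with other measured members. The members, gene lists and motifs were chosen with earlier results of these data known. Alternatives covered normalisation (median centring, quantile, loess), the floor or a pseudocount in its place, the choice of probe set (their median, or only those without shared sequence) and the threshold. Shared sequence means a probe set name that ends in _s_at, _x_at or _a_at. Sharing among transcripts of 1 gene was not separated from sharing between genes. The counting code was tested on simulated data. Python 3.11.15, numpy 2.4.6, pandas 2.3.3 and statsmodels 0.14.6 were used.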

Additional observations from a re-analysis of the deposited data

How the results depend on the processing

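Counts depended on the floor more than on normalisation. Under median centring, quantile normalisation and loess, the same 7 genes were at least 2-fold higher and the same 2 lower. With floors at the 50th percentile, at the 75th percentile and at the 95th percentile of receptor probe sets, 75, 20 and 99 ion channel genes were measured. The 75th percentile floor left 3 genes higher (Kcne4, Kcnk1 and Kcnk6), 0 lower and a median log2 ratio of 0.20 over the 20 genes. Of all genes measured with it, 3.03% were higher and 1% lower. The other 4 higher genes were lost by construction, since this floor lies above their day 5 signals. Cacna1c and Trpm6 were below it on both arrays. The receptor floor gave 12 higher, 6 lower and a median of 0.22. The 2 lower calls did not hold in every setting, and the shares of all measured genes were small as well. With a pseudocount of 50, 0 ion channel genes were 2-fold lower, against 0.878% of all measured genes. With the median over probe sets 0 were (1.85% of all), and without probe sets of shared sequence 1 was (Trpm6, 1.89% of all). At 1.5-fold 5 were lower, 11.4% against 7.7% of all, and at 3-fold 0 were (0.344% of all). Ano1 had a log2 ratio of 0.29 without probe sets of shared sequence, where Kcnn4 had no probe set left, Kcnma1 was below the floor with the median over probe sets, and Kcnk6 lay just under 2-fold with a pseudocount. Of 352 gene values under the alternatives, 301 moved by less than the median difference between 2 probe sets of a gene, 51 by more, and 0 genes past 2-fold changed sign. Some of the other genes did change sign. With the median over probe sets, Kcnj11 went from 0.23 to -0.20 and Clcn7 from -0.12 to 0.15. The 301 include values that could not move, so this count does not measure stability. A lower floor leaves genes above the main floor on both arrays unchanged, and the median leaves genes with 1 probe set unchanged. No paired analysis was possible because each day has 1 array.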

Other observations

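Between the floor and the level of receptor probe sets lay channel genes that the counts above leave out. With each array's 95th percentile of the 80 receptor probe sets as the floor (13.4 at day 12 and 11.1 at day 5), 55 more ion channel genes were measured and 65 remained below. Of the 55, 7 were past 2-fold, and the share among genes of all kinds added by that floor was not counted. Over all 99 ion channel genes measured with that floor, 12.1% were 2-fold higher and 6.06% lower. Of 13575 genes of all kinds measured with it, 5.07% were higher and 2.62% lower. Trpc7, a calcium-permeable TRP channel, had 35.9 at day 12 and 15.5 at day 5, Kcnj6, a G protein-gated rectifier, 38.4 and 17.3, Cacng2 25.0 and 9.69, and Kcnq1, a slow voltage-gated channel, 22.3 and 3.68. Kcne1l had 9.53 at day 12 and 32.3 at day 5, Kcna6 16.2 and 35.2, and Trpc2 11.6 and 27.9. Kcnf1 was at least 5.46-fold higher and P2rx5 2.61-fold lower with that floor. These signals are so low that the values describe the 2 arrays only.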
